A study of Mus musculus with 175 samples.

Results

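The 78 genes described here carry the symbols of mitochondrial ribosomal proteins. They are the protein coding genes of the deposited gene annotation whose name begins with Mrps or Mrpl and a digit, 29 Mrps genes and 49 Mrpl genes, of 21973 protein coding genes and 49585 mouse features in all. The rule reads gene names and no measured value. Single cells from fetal liver at 14.5 days of gestation were sequenced with a modified Smart-Seq2 protocol, in which each cell has a well and a library of its own. The embryos came from C57BL/6 crossed with ICR and carried 1 Runx1 P1-GFP::P2-hCD4 allele, in which GFP reports the P1 promoter of Runx1 and human CD4 the P2 promoter. The genotype field of the labels writes P2-GFP for the same allele. All cells, those called P2- included, carried the allele and none was treated.

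Megakaryocyte-erythroid progenitors (MEPs) and common myeloid progenitors (CMPs) were sorted as lineage-negative Sca1- cKit+ cells without CD41 and with CD150, MEPs being CD34- and CMPs CD34+, and each was divided by human CD4 on the surface into P2- and P2+ cells. The labels call the CMPs low and high, which was read as P2- and P2+. After the quality filters 172 of 175 cells remained, 56 P2- and 47 P2+ MEPs with 27 P2- and 42 P2+ CMPs. Where 4 values stand together below, the first belongs to the P2- MEPs and the second to the P2+ MEPs, then come the P2- CMPs and, last, the P2+ CMPs. The livers of 2 litters were pooled before the sort, so each population is 1 sample without a replicate, and no test between populations was possible. Intervals are at 95%: those of levels and ratios cover counting error only, those of medians reflect the spread over cells or over genes, and none covers the spread between samples. One cell labelled as a P2- CMP has a cell subtype label that names MEPs. The transcript Cd34 was at 0.0327 CPM for the P2- MEPs, 13.1 CPM for the P2+ MEPs, 274.3 CPM among P2- CMPs and 541 CPM among P2+ CMPs. These values match the division of MEPs from CMPs and bear on no other step of the sort. CPM are reads of the gene, summed over the cells of a population, per 1000000 reads on mouse genes. The 7 hepatocyte markers summed to at most 0.00249% of the mouse reads of a population. Human CD4 is not a mouse feature and was not analysed here. The populations held 30606262, 31573710, 18334696 and 36351033 mouse reads, of which 375417, 319144, 165611 and 312940 fell on the 78 genes.

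Mitochondria keep a ribosome of their own, which translates the few messages of the mitochondrial DNA, all of them for subunits of the oxidative phosphorylation complexes. Its ribosomal RNAs are transcribed inside the organelle, whereas all of its proteins are encoded in the nucleus, made in the cytosol and imported. Part of these proteins have relatives in the bacterial ribosome and the others are particular to mitochondria. Cells of the erythroid lineage rely on mitochondria for haem and for iron-sulphur clusters. Most Mrps symbols stand for proteins of the small subunit and Mrpl symbols for the large one, although Mrps18a and Mrps30 are found in the large subunit and Mrps36 has been reassigned to the 2-oxoglutarate dehydrogenase complex.

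Promoter windows from RefSeq (GRCm38.p6, 250 bases before to 50 after a start site) were matched by symbol for 69 of the 78 genes, in 75 windows. The letters of 8 motifs were searched on both strands. CCGGAAG, the core of sites for ETS factors such as GABP, was in 26 member windows (34.7%), against 8.86% of all 32851 windows and 21.6% of the windows of the protein coding genes compared below. CGCATGCGC, the centre of a site for NRF1, was in 7 (9.33%), against 1.75% and 4.53%. AAGATGGC, a YY1 site, was in 12 (16%), against 2.75% and 5.58%. At least 1 of these 3 was in 38 member windows (50.7%), against 12.5% of all windows and 29.2% of the windows of compared genes. For the other motifs the shares of member windows, of all windows and of the windows of compared genes were 9.33%, 7.15% and 10.9% for the E-box CACGTG, 52%, 35.7% and 66.1% for the GC box GGGCGG and 6.67%, 13.6% and 5.99% for TATAAA. Members thus lay above all windows but below the windows of compared genes for the E-box and the GC box, and for TATAAA the order was the opposite. The letters CCAAT were in 40%, 37.4% and 37.9% and the GATA site AGATAA in 14.7%, 11.2% and 5.84%. Matches of different motifs shared a base in 3 member windows. These are matches of letters and not sites known to be bound.

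Shown are the windows of Mrpl52, the gene with the largest differences between populations, of Mrpl22 and Mrpl9, which were also lower outside P2- MEPs, and of Mrpl39, which was not. Capitals mark matches to the ETS, NRF1 and YY1 letters on either strand. The windows lie at chr14:54426659-54426958 (plus strand), chr11:58171414-58171713 (plus), chr3:94443086-94443385 (plus) and chr16:84735195-84735494 (minus).
Mrpl52: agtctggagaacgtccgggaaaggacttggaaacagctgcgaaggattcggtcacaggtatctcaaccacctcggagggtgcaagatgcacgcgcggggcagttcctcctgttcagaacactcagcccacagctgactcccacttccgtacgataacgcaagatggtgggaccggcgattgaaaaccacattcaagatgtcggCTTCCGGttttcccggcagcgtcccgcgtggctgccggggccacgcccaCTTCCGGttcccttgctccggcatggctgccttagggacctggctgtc
Mrpl22: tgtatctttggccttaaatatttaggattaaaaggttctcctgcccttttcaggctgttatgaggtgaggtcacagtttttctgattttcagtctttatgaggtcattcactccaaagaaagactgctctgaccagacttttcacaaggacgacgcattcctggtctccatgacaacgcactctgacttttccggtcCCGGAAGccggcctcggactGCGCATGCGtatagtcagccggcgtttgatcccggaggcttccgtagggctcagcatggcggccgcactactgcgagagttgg
Mrpl9: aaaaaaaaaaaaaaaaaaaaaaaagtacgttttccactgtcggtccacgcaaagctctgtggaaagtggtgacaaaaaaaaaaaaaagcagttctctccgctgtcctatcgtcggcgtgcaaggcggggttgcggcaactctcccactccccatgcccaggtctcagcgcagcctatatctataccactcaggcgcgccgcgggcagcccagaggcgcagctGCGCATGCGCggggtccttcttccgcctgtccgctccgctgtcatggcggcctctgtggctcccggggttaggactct
Mrpl39: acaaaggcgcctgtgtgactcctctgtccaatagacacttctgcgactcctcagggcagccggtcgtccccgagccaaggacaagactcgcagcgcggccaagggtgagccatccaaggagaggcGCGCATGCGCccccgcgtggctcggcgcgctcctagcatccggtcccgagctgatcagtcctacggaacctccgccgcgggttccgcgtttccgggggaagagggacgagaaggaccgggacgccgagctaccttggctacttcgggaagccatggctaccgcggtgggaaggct

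Mrpl52 holds a pair of ETS matches close to the start site, Mrpl22 an ETS and an NRF1 match, and Mrpl9 and Mrpl39 each 1 stretch that matches the NRF1 letters on both strands. Of the 27 members with a window that were at least 1.5-fold lower in any comparison below, 15 had 1 of the 3 motifs (55.6%), and of the 42 other members 23 did (54.8%). Members often began next to another gene: 18 of the 78 (23.1%) had a protein coding gene starting within 1000 bases on the opposite strand without overlap, against 12.7% of the protein coding genes compared. Mrps12 faced Sars2, which encodes the mitochondrial seryl-tRNA synthetase, at 172 bases. Mrps11 and Mrpl46 overlap at their 5′ ends, and their windows have 141 bases in common (chr7:78783040-78783180).

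Of the 78 genes, 77 had reads and 73 were read in at least 80% of the cells. The exception was Mrpl53, with 0 reads in every cell, which over all cells allows a level of up to 0.0257 CPM. The annotation used here places 88% of its exon bases under Gm42688 and Ccdc142os, and the authors' counting left out reads that fall on more than 1 gene, so the lack of reads does not show that Mrpl53 was silent. Mrpl18 was read in every cell, and the least often read of the others was Mrps31, with a read in 60.5% of cells. For 18 members more than 10% of the exon bases were overlapped by another gene and for 45 none were.

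Per kilobase of exon the levels of the members spanned a 71.1-fold range over all cells, with a median of 44.6 RPKM and quartiles of 22.8 and 94.1 RPKM. The highest was Mrpl34 at 377.2 RPKM (chr8:71464959-71465747), which encodes a large-subunit protein with a bacterial relative. It was followed by Mrpl54 at 252.2 RPKM, Mrpl18 at 198 RPKM, Mrpl52 at 196 RPKM and Mrps28 at 186 RPKM. Mrpl34 stood apart from Mrpl54, while Mrpl18 and Mrpl52 had nearly the same level. The lowest with reads were Mrps34 at 5.30 RPKM, Mrpl33 at 8.27 RPKM, Mrpl48 at 8.74 RPKM, Mrps31 at 11.8 RPKM and Mrps10 at 11.9 RPKM. Of the exon bases of Mrps34, 77.8% are overlapped by other genes, and without the members over 10% overlapped the range was 45.6-fold. The exon length counts every annotated isoform, so a gene with long minor isoforms is listed lower than its main transcript would be. Whether this holds for Mrpl33 and Mrpl48 was not tested.

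The clearest pattern was a larger share of reads on these genes in P2- MEPs than in the other populations. The percent of a cell's mouse reads that fell on the 78 genes was at least 0.992, at the median 1.23 (interval 1.19 to 1.27) and at most 1.48 in P2- MEPs. In P2+ MEPs it was at least 0.607, at the median 1.02 (0.953 to 1.06) and at most 1.30. Among P2- CMPs it was at least 0.632, at the median 0.889 (0.802 to 0.972) and at most 1.25, and among P2+ CMPs at least 0.577, at the median 0.862 (0.817 to 0.908) and at most 1.14. The populations overlapped, but 19 of 47 P2+ MEPs lay, with 21 of 27 P2- and 36 of 42 P2+ CMPs, below the lowest P2- MEP. The medians of the P2- and P2+ CMPs lay within each other's intervals. These intervals describe the cells of 1 pool each and do not order the populations beyond these pools. The plot of the share per cell shows the same order for the Mrps genes, with medians of 0.387%, 0.324%, 0.289% and 0.284%, and for the Mrpl genes, with medians of 0.848%, 0.704%, 0.597% and 0.571%.

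**Figure D1:**
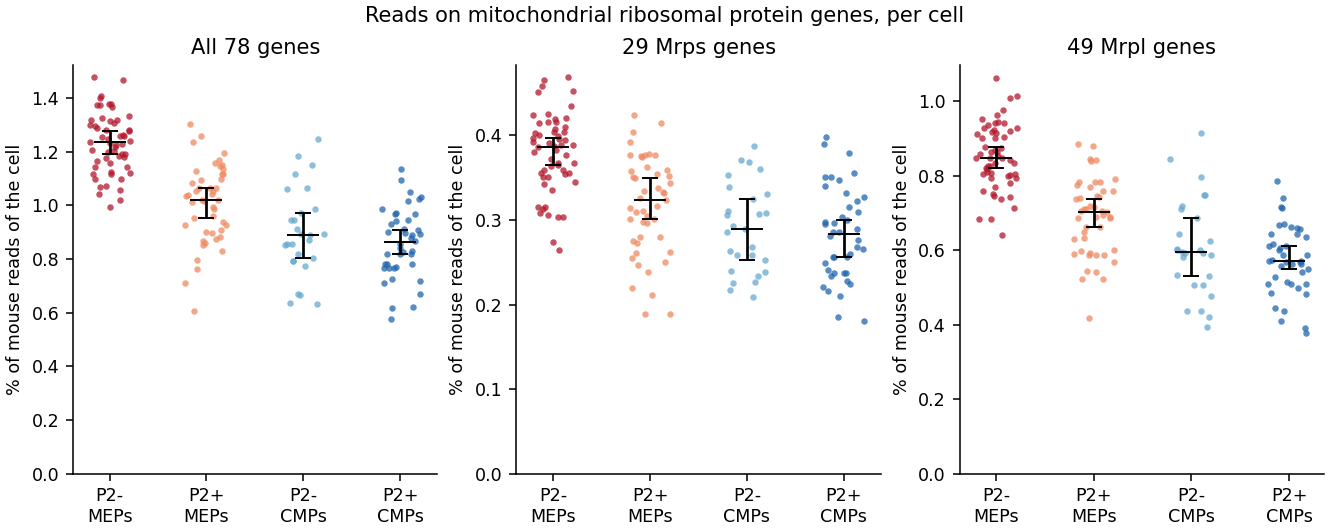
Each point is 1 cell, and the vertical axis is the percent of its mouse reads on all 78 genes (left), the 29 Mrps genes (middle) or the 49 Mrpl genes (right); black bars are medians with their 95% intervals over cells. The P2- MEPs have the highest median in each panel, at 1.23% for all genes against 1.02%, 0.889% and 0.862% in the others.

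With every cell reduced to 100000 mouse reads, the median number of members with a read was 74, 66, 67 and 68.5 in the 4 populations. Fewer members were thus read in a cell of the other populations, at the same depth. The coefficient of variation of a member's CPM over cells had medians of 54.5%, 75.2%, 77.2% and 65.9%. Genes of like level were compared in each population, as those between the quartiles of the members' levels. The median over the 39 members there was 57.2%, 81.6%, 78.3% and 72.5%, against 59.8%, 81.8%, 85% and 77.5% over the other genes in the same range. Members thus varied about as much as such genes in the MEPs and somewhat less in the CMPs.

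The share of reads on the members moved with the amount of mouse RNA read per spike-in read within each population. Mouse reads per ERCC read had medians of 67.4, 39.3, 45.8 and 56.7. Spearman's rho between it and the members' share was 0.52, 0.57, 0.65 and 0.62 over the 56, 47, 27 and 42 cells of the populations, as a description over cells of 1 pool whose 2 measures share the mouse reads. Member reads per ERCC read had medians of 0.861, 0.410, 0.405 and 0.504, so that P2- MEPs were again the highest. The rho with the summed reads of the erythroid markers was weaker and not of 1 sign, at 0.17, 0.39, -0.23 and -0.22 in the same order.

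**Figure D2:**
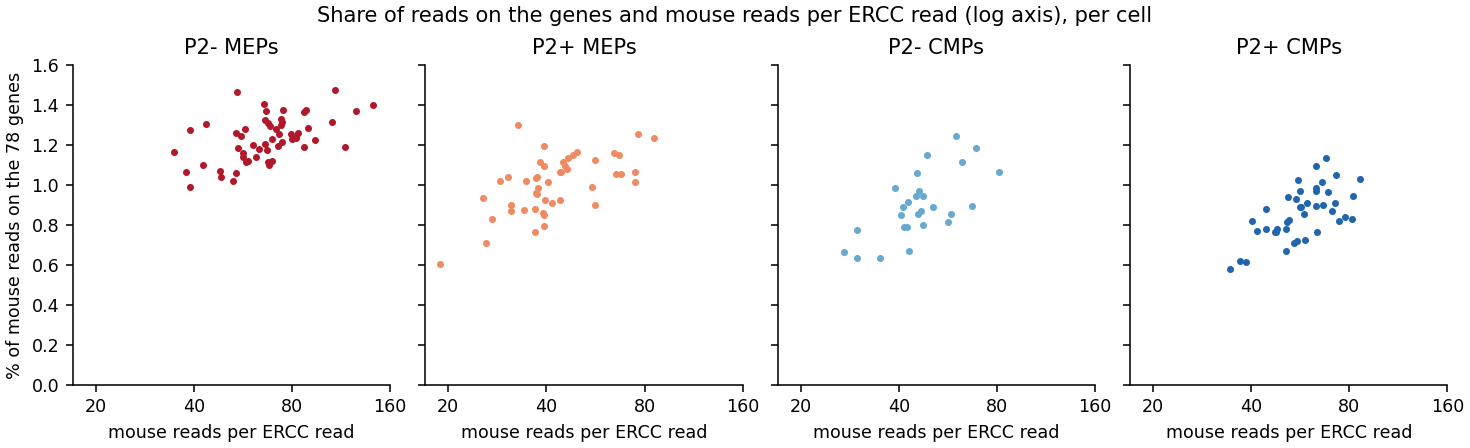
Each point is 1 cell of the population named above the panel, with its mouse reads per ERCC read on a log axis and the percent of its mouse reads on the 78 genes on the vertical axis. The share is higher in cells with more mouse reads per ERCC read in each population, with rho between 0.52 and 0.65.

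The 77 members with reads were compared with all protein coding genes that had a read in at least 25% of the cells, 8127 genes in all and 8126 in the comparisons of P2+ with P2- cells. Log2 ratios were taken between summed CPM, and a gene was called higher or lower when the populations differed at least 1.5-fold, with no p-value. Of the 77 members, 57 (74.0%) had their highest level in P2- MEPs, against 29.7% of all compared genes. The lowest level was in P2+ CMPs for 36 members and in P2- CMPs for 27, but this was not counted over all genes, so nothing is read from it. For 25 members (32.5%) the level was lower at each step in the order P2- MEPs, P2+ MEPs, P2- CMPs, P2+ CMPs, against 10.7% of compared genes.

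**Figure D3:**
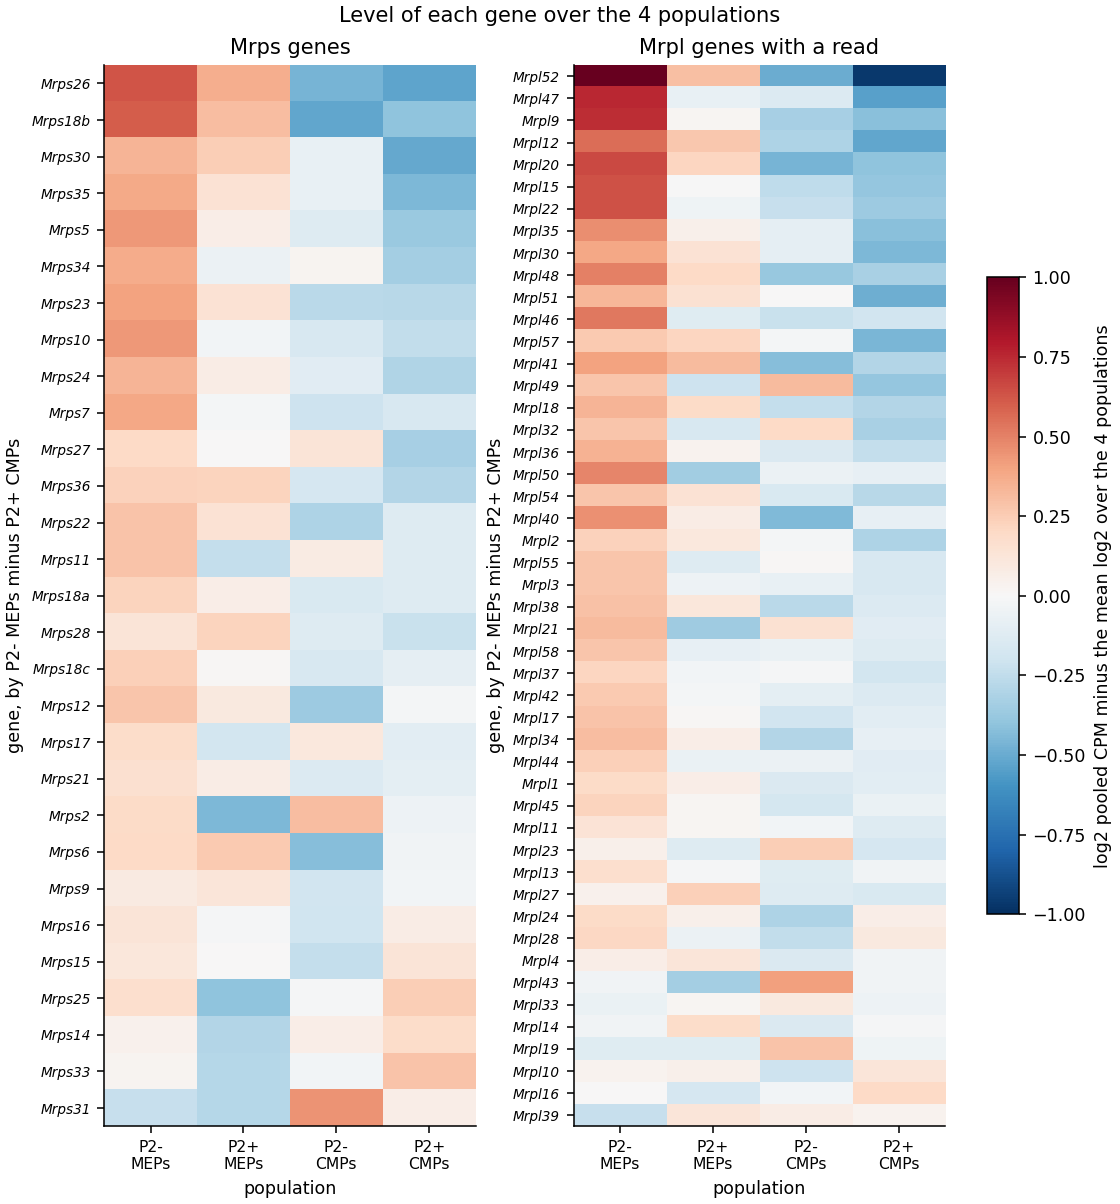
Rows are the 29 Mrps genes (left) and the 48 Mrpl genes with a read (right), columns the 4 populations, and colour the log2 pooled CPM minus its mean over the populations, with rows ordered by P2- MEPs minus P2+ CMPs. Most rows are reddest in P2- MEPs (57 of 77) and Mrpl52 has the widest range. Mrpl39 is lower in P2- MEPs than in P2+ MEPs, and Mrps31 is lower in P2- MEPs than in P2- CMPs.

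Between P2+ and P2- MEPs, nearly all members were lower in the P2+ cells by a small amount. The median log2 ratio was -0.24 (interval over members -0.30 to -0.18), against 0.02 over all genes, and 67 of 77 ratios were negative (87.0%, against 48.6% of all genes). At least 1.5-fold lower were 9 members (11.7%), where 9.12% of all genes were, and 0 members were at least 1.5-fold higher, where 17% of all genes were. The share of members called lower was thus near that of all genes, and the difference lay in the shift of nearly all members and in the lack of higher ones. When only cells with 45.7 to 67.1 mouse reads per ERCC read were taken, 10 P2+ and 21 P2- MEPs, the members' median was -0.08 and that of all genes -0.03. The difference from all genes thus went from -0.26 to -0.05 between cells of like mouse reads per ERCC read. Markers of maturing cells differed as well. The 12 erythroid markers summed to 0.271% of the mouse reads of P2- MEPs (0.0845% to 0.417% over cells) and to 0.155% of those of P2+ MEPs (0.0242% to 0.443%), with a median log2 ratio of -1.04 over the 10 compared, and the 8 megakaryocytic markers to 0.00565% and 0.0569%. The 3 compared markers of granulocytes and monocytes (median log2 ratio 2.10) and the 3 of stem and multipotent cells (3.49) were higher in P2+ MEPs. The 8 genes of cell division summed to 0.246% and 0.200%, with a median of -0.31 and all 8 ratios negative, 2 of them past 1.5-fold. Their part in the members' difference was not tested.

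Mrpl52, a large-subunit protein particular to mitochondria, differed most (chr14:54426909-54429756, plus strand). Its level was 407 CPM (400 to 415) among P2- MEPs and 225.6 CPM (220.4 to 230.9) in P2+ MEPs, a log2 ratio of -0.85. Over single cells it was between 166 and 795 CPM in P2- MEPs with a median of 387, and between 5.94 and 504 CPM in P2+ MEPs with a median of 189. All P2- MEPs had reads of Mrpl52, and 16 of 47 P2+ MEPs lay below the lowest of them.

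Mrpl50, another large-subunit protein without a bacterial relative, was at 153 CPM among P2- MEPs and 86.1 CPM among P2+ MEPs (log2 ratio -0.83). Mrpl47, which sits beside the exit of the peptide tunnel, was at 155 and 87.2 CPM (-0.83), and 24.2% of its exon bases are overlapped by Ndufb5 and Actl6a. Mrpl9 was at 158 and 95.97 CPM (-0.72). The cells overlapped widely for these genes: 9 of 47 P2+ MEPs had 0 reads of Mrpl47, and 11 were above the P2- MEP median of 147 CPM.

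Mrpl22, which lines the peptide tunnel, was at 157 CPM among P2- MEPs and 97.6 CPM among P2+ MEPs (-0.68). Mrpl21 had a ratio of -0.67, Mrpl46 of the central protuberance -0.65, Mrpl15 -0.64 and Mrps2, the only small-subunit gene among the 9, -0.64. All 9 stayed at least 1.5-fold lower in each of the 7 other settings tried for single genes. The cell of conflicting label is labelled a P2- CMP, and ERCC scaling moved every ratio of this comparison by -0.62. Neither setting could thus end a call. Cells of like mouse reads per ERCC read were not compared for single genes. At the other end was Mrpl39, a large-subunit protein particular to mitochondria, at 88.3 CPM among P2- and 113 CPM among P2+ MEPs (log2 ratio 0.36), followed by Mrpl14 (0.22) and Mrpl27 (0.20). None of these reached 1.5-fold. For Mrpl39 the median cell was at 70.7 CPM in P2- MEPs (51.5 to 96.2) and at 96.6 CPM in P2+ MEPs (54.96 to 131), and these intervals overlap.

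**Figure D4:**
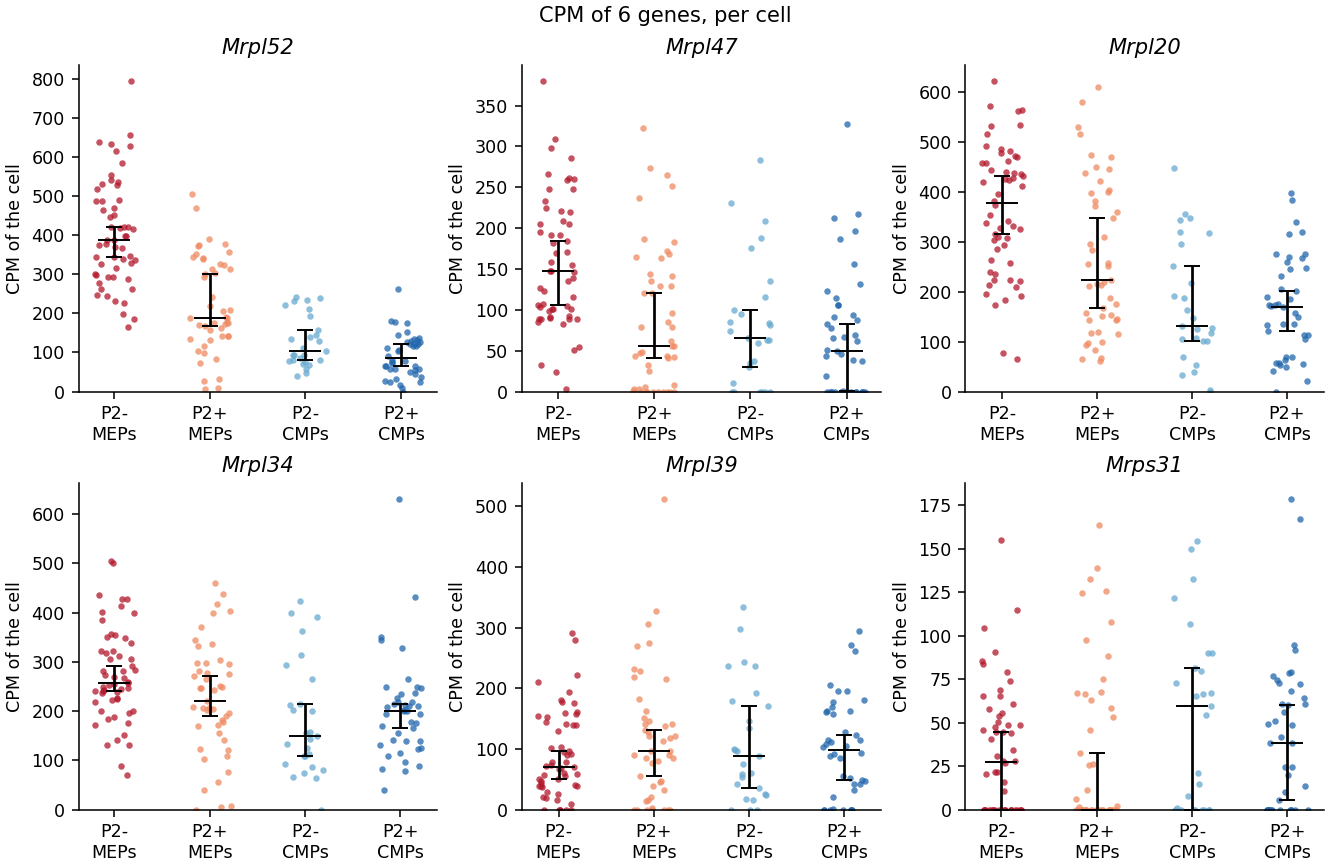
Each point is 1 cell, the vertical axis is its CPM (reads of the gene per 1000000 mouse reads), and black bars are medians with 95% intervals over cells. Mrpl52 has a median of 387 CPM in P2- MEPs and 86.4 CPM in P2+ CMPs, of which 38 of 42 cells lie below the lowest P2- MEP, Mrpl47, Mrpl20 and Mrpl34 are also highest there, and Mrpl39 and Mrps31 are not.

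Between P2+ and P2- CMPs the members as a group were close to all genes. The median log2 ratio was -0.06 (-0.13 to 0.03), against -0.03 over all genes, with 46 of 77 ratios negative (59.7%, against 52.8% of all genes). Only Mrpl49 was at least 1.5-fold lower (1.30% of members, against 13.4% of all genes), and 0 members were at least 1.5-fold higher, against 10.4% of all genes. With ERCC reads as the denominator the ratio of Mrpl49 was -0.37, under 1.5-fold, and 0 members were lower and 10 of 77 higher, but 25.5% of all genes were then higher and 5.62% lower, so these counts moved with all genes. Equal cell weight and DESeq2 size factors each gave 2 lower and 1 higher members, a smaller share than of all genes, of which 1022 and 972 of 8126 were lower and 783 and 854 higher. Mrpl49, a large-subunit protein particular to mitochondria, was at 130 CPM in P2- CMPs and 79.6 CPM in P2+ CMPs (-0.70, interval -0.78 to -0.62). In the single P2- CMPs it ran from 0 to 485 CPM with a median of 105 (27.5 to 198), and in P2+ CMPs from 0 to 245.6 CPM with a median of 73.6 (30.6 to 108). The intervals of the medians overlap, so the difference in the sums came with a wide spread between cells. The members with the highest ratios were Mrps6 (0.39), Mrpl24 (0.38) and Mrps15 (0.37), and after Mrpl49 the lowest were Mrpl32 (-0.52) and Mrpl51 (-0.50). Between 25 P2+ and 16 P2- CMPs of like mouse reads per ERCC read the members' median was -0.15 and that of all genes -0.02.

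With all cells taken, the members differed most between P2- CMPs and P2- MEPs. The median log2 ratio of CMPs over MEPs was -0.36 (-0.45 to -0.30), against 0.02 over all genes, and 68 of 77 were negative (88.3%, against 49.3% of all genes). At least 1.5-fold lower in CMPs were 20 members (26%), against 16.5% of all genes, and 1 was at least 1.5-fold higher (1.30%), against 23.6% of all genes. This comparison and that between the MEPs share the P2- MEPs. Between 11 CMPs and 16 MEPs of like mouse reads per ERCC read the members' median was -0.24 and that of all genes -0.03, a smaller difference than among P2+ cells chosen in this way (-0.33 and -0.04). The erythroid markers summed to 0.111% of the mouse reads of P2- CMPs (0.0399% to 0.265% over cells) with none at 0, and the 8 granulocyte and monocyte markers to 0.0435%, against 0.00163% in P2- MEPs, where 4 of them were at 0. The megakaryocytic markers went from 0.00565% to 0.0596% (median log2 ratio 4.27 over the 5 compared) and the stem and multipotent markers from 0.000866% to 0.0540% (6.397 over the 3 compared). The stem list holds Cd34, on which the sort divided MEPs from CMPs, so its rise follows in part from the sort. Over single P2- MEPs the granulocyte and the stem sums had a median of 0, so these genes were read mostly in the other populations. The part of these markers in the result was not tested.

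Mrpl52 was at 129 CPM (124 to 135) in P2- CMPs, a log2 ratio of -1.66 to P2- MEPs, and 20 of 27 P2- CMPs lay below the lowest P2- MEP. The next lowest were Mrpl20, a large-subunit protein with a bacterial relative, from 366.3 to 168 CPM (-1.13), and Mrps18b, from 58.5 to 26.8 CPM (-1.13). Mrps26, a small-subunit protein particular to mitochondria, went from 277.5 to 130 CPM (-1.09) and Mrpl9 from 158 to 75.3 CPM (-1.07). Single cells overlapped for Mrpl20, which was between 65.8 and 623 CPM in P2- MEPs (median 378.6) and between 0 and 449 CPM in P2- CMPs (median 131), with 1 of 27 P2- CMPs above the P2- MEP median.

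The other lower members were Mrpl12, Mrpl15, Mrpl22, Mrpl34, Mrpl40, Mrpl41, Mrpl46, Mrpl47, Mrpl48, Mrps6, Mrps7, Mrps10, Mrps12, Mrps22 and Mrps23, between -0.90 and -0.59. Of these, Mrpl34, Mrps6, Mrps7, Mrps10, Mrps22 and Mrps23 came under 1.5-fold in at least 1 of the 7 other settings, with values between -0.58 and -0.54. Side by side with their ratios in P2+ MEPs to the same P2- MEPs, Mrpl47 had -0.89 in P2- CMPs and -0.83 in P2+ MEPs, Mrpl15 -0.89 and -0.64, Mrpl22 -0.87 and -0.68, and Mrpl46 -0.75 and -0.65. Mrpl50 had -0.55 and -0.83, and Mrpl21 -0.17 and -0.67, so these 2 were nearer to P2- MEPs in the CMPs. Mrps2, which binds at the back of the small subunit, was at 117, 75.3, 127 and 99.1 CPM in the 4 populations. Its level was thus higher in both P2- populations than in either P2+ population. The member higher in P2- CMPs was Mrps31, a small-subunit protein particular to mitochondria, at 33.5 CPM in P2- MEPs and 53.6 CPM in P2- CMPs (0.68, interval 0.55 to 0.81), but at a ratio of 0.16 when scaled by ERCC reads. Reads of it were in 34 of 56 P2- MEPs and 19 of 27 P2- CMPs, with medians of 27.3 (0 to 44.9) and 59.3 CPM (0 to 81.4) over cells, whose intervals overlap. Mrpl43 (0.44) and Mrpl19 (0.40) came next, with 33.4% and 36% of their exon bases overlapped.

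Between P2+ CMPs and P2+ MEPs the members were also lower in the CMPs, by less, per mouse read. Per ERCC read they were higher, as was the median of all genes (0.38). The median log2 ratio was -0.16 (-0.27 to -0.11), against -0.05 over all genes, and 60 of 77 were negative (77.9%, against 53.6%). At least 1.5-fold lower were 11 members (14.3%), against 18.1% of all genes, and 1 was at least 1.5-fold higher (1.30%), against 17% of all genes. Called members were therefore not more frequent than called genes in general. Scaled by ERCC reads, the members' median was 0.27 with 1 lower and 10 higher, where 6.79% of all genes were lower and 36.6% higher. This scaling moves every ratio of a comparison by the same amount, here 0.43. The members' distance of -0.11 from all genes could therefore not change. Between 27 CMPs and 15 MEPs of like mouse reads per ERCC read the members' median was -0.33 and that of all genes -0.04. The erythroid markers had a median log2 ratio of -2.24 over the 10 compared, of which 7 were at least 1.5-fold lower and 2 higher, and summed to 0.0764% of the mouse reads of P2+ CMPs (0.00902% to 0.151% over cells). The 3 compared markers of granulocytes and monocytes (median 2.20) and the 3 of stem and multipotent cells (4.06) were all higher. Here too the stem list holds Cd34, on which the sort divided MEPs from CMPs. The part of these markers in the result was not tested.

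Mrpl52 was again the lowest, at 93.7 CPM (90.5 to 96.9) in P2+ CMPs (-1.27). Single cells overlapped widely, between 5.94 and 504 CPM in P2+ MEPs and between 0 and 263.4 CPM in P2+ CMPs, with medians of 189 and 86.4 CPM. Mrps26 followed with 231.6 CPM in P2+ MEPs and 125 CPM in P2+ CMPs (-0.89), then Mrpl12 with 190 and 110 CPM (-0.79). Mrpl12 forms the stalk that recruits translation factors to the ribosome. The others called lower were Mrps30 (-0.76), Mrps18b (-0.71), Mrpl57 (-0.67), Mrpl51 (-0.65), Mrpl20 (-0.62), Mrpl41 (-0.61), Mrps35 (-0.59) and Mrpl30 (-0.59). Of the 11 only Mrpl52 stayed at least 1.5-fold lower with ERCC scaling, where the other 10 had ratios between -0.46 and -0.16. The member higher in P2+ CMPs was Mrps25, at 87.7 CPM in P2+ MEPs and 137 CPM in P2+ CMPs (0.65), but 69.8% of its exon bases are overlapped by Nr2c2, and with equal weight for every cell the ratio was 0.55, under 1.5-fold. Mrps33 (0.57) and Mrps14 (0.47) came next.

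**Figure D5:**
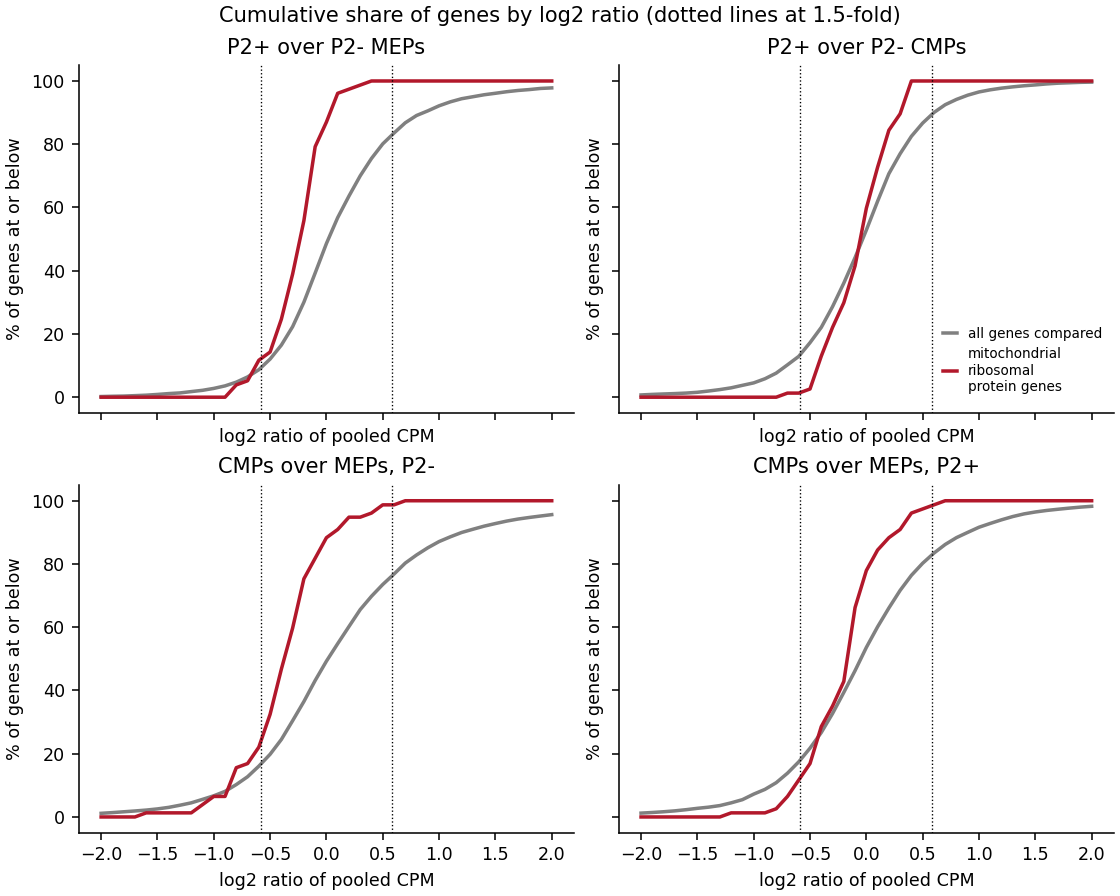
For each of the 4 comparisons the horizontal axis is the log2 ratio of pooled CPM and the vertical axis the percent of genes at or below it, for the 77 members (red) and all compared genes (grey), with dotted lines at 1.5-fold. The members are shifted to lower ratios in 3 panels (medians -0.24, -0.36 and -0.16, the last being 0.27 with ERCC scaling). They spread less than all genes in each, which were not matched to them for level.

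The broad classes of members had like medians in both comparisons with P2- MEPs. In P2+ against P2- MEPs the median was -0.26 for the 17 small-subunit genes with a bacterial relative, -0.26 for the 9 small-subunit genes particular to mitochondria, -0.24 for the 31 large-subunit genes with a bacterial relative and -0.26 for the 18 compared that are particular to the mitochondrial large subunit. In P2- CMPs against P2- MEPs the same classes had medians of -0.35, -0.34, -0.35 and -0.41. In P2+ CMPs against P2+ MEPs they were -0.15, -0.27, -0.16 and -0.17, the small-subunit genes particular to mitochondria being the lowest, and in P2+ against P2- CMPs 0.04, -0.06, -0.08 and -0.05.

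The 3 genes of the stalk differed among themselves. Mrpl12 was at 231.5, 190, 127 and 110 CPM in the 4 populations. Mrpl10, the base of the stalk, was at 59.6, 60.4, 50.6 and 63.2 CPM and Mrpl11, which binds beside it, at 129, 119, 115 and 107 CPM. Only Mrpl12 of the 3 passed 1.5-fold, in both comparisons of CMPs with MEPs. The 6 genes around the exit tunnel had a median of -0.24 in the MEP comparison, with 2 lower (Mrpl22 and Mrpl47, where 9.12% of all genes were), while Mrpl17 (-0.27), Mrpl23 (-0.18), Mrpl24 (-0.14) and Mrpl45 (-0.20) were within 1.5-fold.

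Of the 7 genes of the central protuberance, which contacts the small subunit, 3 were lower in P2- CMPs than in P2- MEPs, where 16.5% of all genes were: Mrpl40, from 231.4 to 124 CPM (-0.90), Mrpl48, from 96.3 to 51.98 CPM (-0.89), and Mrpl46, from 131 to 77.7 CPM (-0.75). Mrpl18 (-0.58), Mrpl27 (-0.17), Mrpl38 (-0.56) and Mrpl55 (-0.26) were within 1.5-fold. The 3 relatives of bacterial S18 had the same direction but not the same size: Mrps18a went from 138 to 107 CPM (-0.37), Mrps18b from 58.5 to 26.8 CPM (-1.13) and Mrps18c from 80.3 to 60.8 CPM (-0.40), with 30.5% of the exon bases of Mrps18b and 23.2% of those of Mrps18c overlapped. Reads on the processed pseudogenes were few, from 0 for Mrps36-ps3 to 820 for Mrpl23-ps1 over all cells, beside 1173112 on the members.

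Genes that work with the mitochondrial ribosome were compared from lists chosen with earlier results of these data known. Of the 5 mitoribosome proteins named otherwise, Dap3, a small-subunit protein, was at 234.5, 165, 154 and 165 CPM in the 4 populations, and Ptcd3 at 132, 98.6, 89.2 and 72.98 CPM. With Mrpl58, which is a member, their median log2 ratio was -0.33 in the MEP comparison and -0.46 for P2- CMPs over P2- MEPs, with 0 and 2 of 6 at least 1.5-fold lower, against 9.12% and 16.5% of all genes. Of 11 compared factors of mitochondrial translation, 1 was lower in P2+ MEPs (median -0.33) and 5 in P2- CMPs against P2- MEPs (median -0.54), beside the same shares of all genes. The one lower in P2+ MEPs was Gfm1, which moves the ribosome along the message, at 130 and 73.8 CPM (-0.81). Assembly factors had medians of -0.17 and -0.29, with 4 and 6 of 20 lower and 0 higher. Of all genes 9.12% and 16.5% were lower and 17% and 23.6% higher in these comparisons. Mitochondrial tRNA synthetases had medians of -0.24 and -0.32, with 5 of 16 lower in each and 0 higher, beside the same shares of all genes. Their summed reads were 0.345%, 0.386%, 0.345% and 0.291% of the mouse reads in the 4 populations. Against P2- MEPs the sum was thus lower only in P2+ CMPs, and over single P2- CMPs it ran from 0.111% to 0.955%. The 13 mitochondrially encoded mRNAs took 1.99%, 1.98%, 1.71% and 1.66% of the mouse reads, nearly level between the MEPs and lower in the CMPs. Over the 10 compared the median log2 ratio was 0.10 in the MEP comparison, and -0.23 and -0.49 for CMPs over MEPs among P2- and P2+ cells, with 9 of 10 negative in each of the last pair. The pair of mitochondrial rRNAs took 1.95%, 2.69%, 2.36% and 1.93%, which is not the order of the members.

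Other gene sets, with lists added after values of the members had been seen, shared the direction in part. Cytosolic ribosomal proteins had a median of -0.08 over 82 genes in the MEP comparison and of -0.24 in P2- CMPs over P2- MEPs, where 78 of 82 were negative (49.3% of all genes) and 3 at least 1.5-fold lower (16.5% of all genes). Nuclear subunits of oxidative phosphorylation had medians of -0.14 and -0.18 over 78 genes, with 57 negative and 7 lower in the second. Both sets were thus called lower less often than all genes, their ratios being small and mostly of 1 sign. In that comparison the members' median was -0.36, with 68 of 77 negative and 20 lower, so the negative direction was not particular to the members.

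The genes of factors whose motifs were searched did not follow the members in all populations. Gabpa was at 40.7, 53.2, 24.7 and 30.1 CPM, Nrf1 at 80.6, 59.0, 53.996 and 68.8 CPM and Yy1 at 75.2, 81.7, 71.7 and 40.8 CPM. Gabpa and Yy1 were thus highest in P2+ MEPs and Nrf1 in P2- MEPs. Myc, a driver of ribosome production, was at 394, 345.7, 252.7 and 253.9 CPM. These genes belong to a list of 10 regulators of mitochondrial genes, of which 9 were compared. The list had a median log2 ratio of -0.19 in P2+ over P2- MEPs and 0.07 in P2+ over P2- CMPs. For CMPs over MEPs it was -0.55 among P2- cells and -0.42 among P2+ cells, so there the list as a whole was lower, as the members were.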

How the data were processed

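Single cells were sequenced as paired reads of 75 bases without molecular identifiers. The authors trimmed the reads (Trimmomatic 0.36), aligned them to GRCm38 and the ERCC sequences (STAR 2.4.2a) and counted them without use of strand on GENCODE M12 exons (HTSeq 0.6.1p1), and the deposited counts are not normalized. Of the uniquely mapped reads 25.6% were ambiguous between genes. The percent of unmapped reads per cell was deposited by the authors.

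Cells with at least 250000 reads, at most 25% unmapped and at most 15% ERCC reads were kept, with 295064 to 1540631 mouse reads each. The members drew 1173112 of 116865701 mouse reads. Counts were summed per population and scaled to CPM, or to RPKM with the exon union of GENCODE vM21, a later release. Intervals at 95% were exact Poisson (levels), conditional binomial (ratios), both for counting error only, and order statistics over cells or genes (medians). A count of 0 was given a limit of 3 reads. The ratio procedure was tested on simulated data. Python 3.11.15, numpy 2.4.6, pandas 2.3.3, scipy 1.17.1 and, for size factors, DESeq2 1.42.0 were used.

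Named genes are the 5 highest and 5 lowest per kilobase, the 3 highest and 3 lowest ratios of each comparison, the 1.5-fold calls and the genes of 4 structural classes, and not every one is named. Members and lists were chosen with earlier results of these data known. The alternatives were equal cell weights, DESeq2 size factors, ERCC scaling, all deposited cells, leaving out each gene's highest cell, other denominators, leaving out the cell of conflicting label, no low filter, and no overlapped members.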

Additional observations from a re-analysis of the deposited data

How the results depend on the processing

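The cells of a population come from 1 pool, so leaving out a replicate was not possible. No paired analysis was possible because each population is 1 sample and the numbers of the cells only name them. Equal weight per cell, DESeq2 size factors, every deposited cell, leaving out each gene's highest cell, leaving out the cell of conflicting label, a denominator without mitochondrial genes and Rn18s-rs5, no low filter and leaving out overlapped members kept the 4 medians within their intervals. The 7 alternatives for single genes had ERCC scaling in place of the filter and overlap settings. All 43 ratios of named members past 1.5-fold kept their direction in all 7, and 19 fell under 1.5-fold in at least 1 of these, all in comparisons with CMPs. With ERCC scaling set aside, 31 of the 43 stayed at least 1.5-fold in every alternative.

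Scaling by ERCC reads shifts every log2 ratio of a comparison by the same amount, so the difference from all genes could not change. The shifts were -0.62 for P2+ over P2- MEPs, 0.33 for P2+ over P2- CMPs, and -0.51 and 0.43 for CMPs over MEPs among P2- and among P2+ cells. The members' medians were then -0.86, 0.27, -0.87 and 0.27, so the sign turned in the second and the last. The lower members numbered 69, 0, 66 and 1, and the higher ones 10 in the second, 0 in the third and 10 in the last. All genes were called with them: 51.1%, 5.62%, 44.9% and 6.79% were lower and 25.5% in the second, 11.4% in the third and 36.6% in the last higher. Leaving out each gene's highest cell shifted all genes by -0.11 in P2- CMPs over P2- MEPs, and no low filter by 0.12 there and 0.11 among P2+ cells.

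For P2+ over P2- CMPs, equal cell weight and DESeq2 size factors each gave 1 higher and 2 lower members, and leaving out the highest cell gave 1 higher and a median of 0.01. For P2+ CMPs over MEPs the higher members were 0 with DESeq2 size factors, 0 without overlapped members, and 2 without mitochondrial genes and Rn18s-rs5 in the denominator, where 7 were lower. Rn18s-rs5 took 5.58% of the reads of P2- MEPs and 10.6% of those of P2+ CMPs, and with that denominator the members' share per cell had medians of 1.38%, 1.17%, 1.02% and 1.02%. Among cells of like mouse reads per ERCC read, an alternative chosen after seeing the data, the 4 medians were -0.077, -0.15, -0.24 and -0.33. The members read per cell at 50000 reads were 71.5 in P2- MEPs and 66 in P2+ CMPs, and 71 in P2+ CMPs without thinning. The cause of these changes was not tested.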
